A study of Homo sapiens with 2 samples.

Results

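The genes described here encode the proteasome, the protease complex that degrades ubiquitin-tagged proteins, together with its activators, its inhibitor and its assembly chaperones. They were taken from a list of chromatin immunoprecipitation (ChIP) peaks of APC as all peaks whose named gene is protein-coding and has a symbol that starts with PSM, a letter from A to G and a number. This gave 91 of the 44771 peaks of the list, named for 39 genes. RefSeq holds 50 symbols of this form, so 11 had no peak named for them. Of these 11, 10 encode parts of the proteasome system and were kept, which gave 49 genes, and PSME3IP1, a match by name only, was left out. PSMC3IP also matches by name only, since it encodes a partner of the recombinases that act in homologous recombination, but it has a peak and was kept among the 39. The choice between PSMC3IP and PSME3IP1 thus followed the peaks. Counts and medians below include PSMC3IP unless stated.

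The peaks come from HCT-116, an established human colon carcinoma line labelled APC wild-type, CTNNB1{delta}Ser45, in which β-catenin resists degradation. Chromatin was crosslinked with 1% formaldehyde for 10 min, 24 h after seeding, with no other treatment stated. Of 2 libraries, 1 was precipitated with a polyclonal antibody to the C terminus of APC and 1 is pre-cleared input of the same genotype. APC is the tumour suppressor that takes part in the destruction of β-catenin. The single peak list has no replicate and no control antibody, so no value below carries a test, and binding of APC and background of the precipitation cannot be told apart. The list gives no read counts: the sequencing depth is unknown, and intervals cover counting error only.

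The proteasome consists of a barrel-shaped core and a regulatory cap. The core stacks outer rings of alpha subunits (PSMA), which gate the entry, on inner rings of beta subunits (PSMB), some of which are the proteases. The cap has a base, with a ring of ATPases (PSMC) that unfold substrates, and a lid. The PSMD genes encode the lid, the other subunits of the base and chaperones of the base. Among them are PSMD4, a ubiquitin receptor of the base, and PSMD14, the deubiquitinase of the lid. The transcription factor NFE2L1, also called NRF1 but unrelated to nuclear respiratory factor NRF1, induces subunit genes through antioxidant response elements (AREs) when the proteasome is inhibited. β-catenin is itself a substrate of this complex.

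APC peaks lay at the starts of most proteasome genes. Of the 49 genes, 39 (79.6%) were named for at least 1 peak, against 67.2% of 20037 protein-coding genes. A peak was called linked when its centre lay within 10 kb of the transcription start site (TSS) of its named gene, and 36 genes (73.5%, 95% Wilson interval 59.7 to 83.8) had a linked peak, against 50.7% of all protein-coding genes. Without PSMC3IP the count was 35 of 48 (72.9%). For 33 genes (67.3%, interval 53.4 to 78.8) a named peak was long enough to cover the TSS by its listed distance, against 36.4% of all protein-coding genes. Another 4 genes, PSMA2, PSMD5, PSME2 and PSMG2, had a peak that carries the promoter label of 1 of their transcripts but is named for a neighbouring gene. Within 1 kb of the TSS a named peak was centred for 30 of 49 genes (61.2%, against 34.9%), and within 50 kb for 39 (79.6%, against 63.7%). With promoter labels, 37 of 49 genes (75.5%, interval 61.9 to 85.4) had a covered start or a peak with their promoter label, against 40.2% of all protein-coding genes counted in the same way. A promoter label does not show that the peak covers the TSS. The TSS positions of genes with no named peak were not placed in hg19, so distances from them to peaks named for neighbours were not measured.

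**Figure D1:**
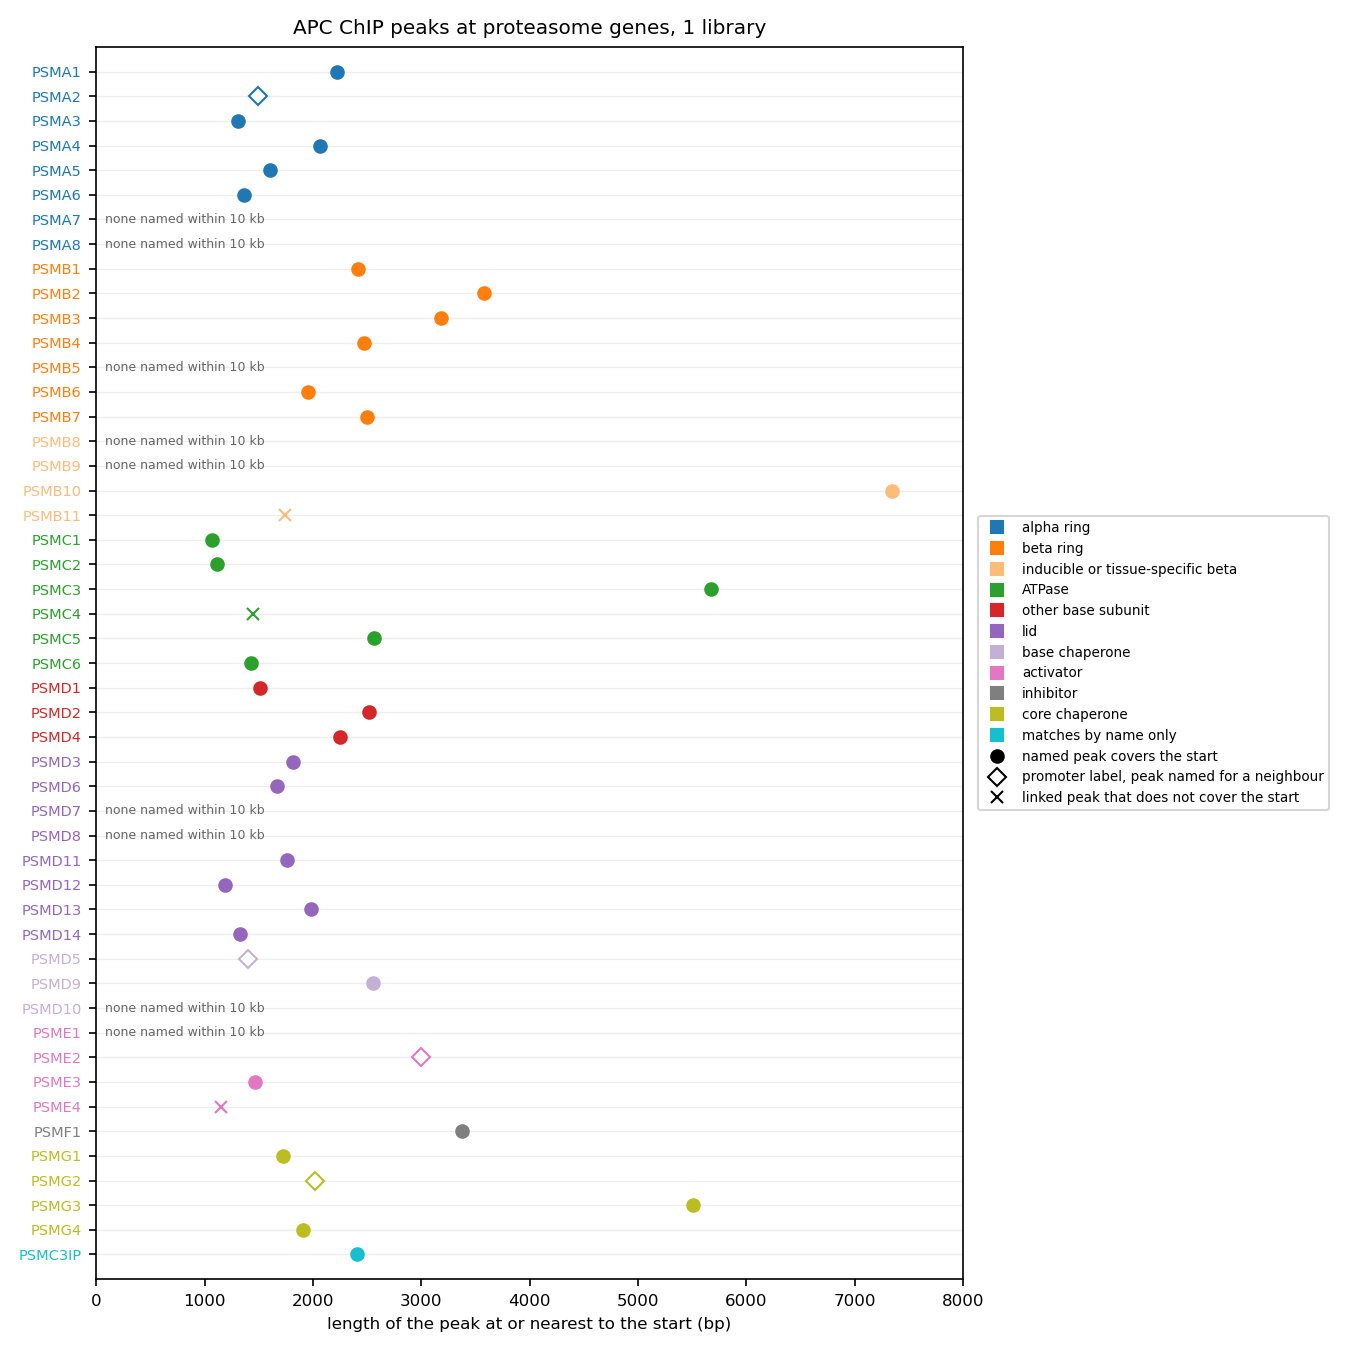
Length in bp of the peak at or nearest to the start of each of the 49 genes, in the 1 APC library, coloured by role. Filled circles are named peaks that cover the start (33 genes), open diamonds are peaks labelled as the gene's promoter but named for a neighbour (4 genes), crosses are linked peaks that do not cover the start (3 genes), and for the 9 remaining genes no peak was named within 10 kb or carried their promoter label; PSMB10 (7345 bp), PSMC3 (5674 bp) and PSMG3 (5508 bp) have the longest.

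The stretches upstream of 6 starts that hold an ARE core are shown here because they represent 3 of the 4 states found: a start covered by a named peak (PSMB3, PSMD3, PSMD9, PSMD12), a promoter label on a peak named for a neighbour (PSME2) and a gene with no named peak (PSMB9). None is shown for a gene with named peaks only elsewhere. Each line gives the 250 bases before the TSS, 5′ to 3′ on the strand of the gene, from RefSeq on GRCh38.p14, whereas the peaks are in hg19 coordinates. Capitals mark the letters TGACNNNGC on either strand. The windows are chr17:38752491-38752740, plus strand, for PSMB3; chr17:39980557-39980806, plus strand, for PSMD3; and chr12:121888540-121888789, plus strand, for PSMD9. They are chr17:67366578-67366827, minus strand, for PSMD12; chr14:24146611-24146860, minus strand, for PSME2; and chr6:32853942-32854191, plus strand, for PSMB9.
PSMB3: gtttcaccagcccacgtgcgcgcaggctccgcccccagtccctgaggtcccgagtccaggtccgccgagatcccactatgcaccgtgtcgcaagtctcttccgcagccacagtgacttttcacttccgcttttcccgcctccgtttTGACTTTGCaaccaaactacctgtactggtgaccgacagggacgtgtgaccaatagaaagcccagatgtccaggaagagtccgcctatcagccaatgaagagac
PSMD3: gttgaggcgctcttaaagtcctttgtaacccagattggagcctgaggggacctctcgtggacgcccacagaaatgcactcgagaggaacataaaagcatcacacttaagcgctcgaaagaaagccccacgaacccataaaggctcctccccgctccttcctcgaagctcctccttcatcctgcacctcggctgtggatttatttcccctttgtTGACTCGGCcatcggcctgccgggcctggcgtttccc
PSMD9: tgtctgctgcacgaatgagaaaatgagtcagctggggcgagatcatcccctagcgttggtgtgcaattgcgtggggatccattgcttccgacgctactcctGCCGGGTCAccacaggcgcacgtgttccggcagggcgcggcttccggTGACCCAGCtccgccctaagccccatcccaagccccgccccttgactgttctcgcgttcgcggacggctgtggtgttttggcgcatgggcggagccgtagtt
PSMD12: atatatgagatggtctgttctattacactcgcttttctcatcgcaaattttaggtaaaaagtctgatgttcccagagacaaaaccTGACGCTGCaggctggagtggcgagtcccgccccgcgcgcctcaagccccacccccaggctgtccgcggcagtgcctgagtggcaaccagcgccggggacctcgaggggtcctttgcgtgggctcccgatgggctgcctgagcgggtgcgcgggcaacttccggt
PSME2: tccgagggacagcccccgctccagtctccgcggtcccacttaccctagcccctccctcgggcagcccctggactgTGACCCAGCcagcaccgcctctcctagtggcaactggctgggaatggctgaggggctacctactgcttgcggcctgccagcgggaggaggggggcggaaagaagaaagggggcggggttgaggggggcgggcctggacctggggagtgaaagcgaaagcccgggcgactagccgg
PSMB9: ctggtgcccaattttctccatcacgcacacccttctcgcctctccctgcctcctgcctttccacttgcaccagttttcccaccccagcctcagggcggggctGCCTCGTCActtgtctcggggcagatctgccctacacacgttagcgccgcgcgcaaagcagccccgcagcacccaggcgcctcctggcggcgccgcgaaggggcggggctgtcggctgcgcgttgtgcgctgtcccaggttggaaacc

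The ARE core began 104 bases before the TSS in PSMB3, 37 in PSMD3, 165 in PSMD12, 175 in PSME2 and 148 in PSMB9. PSMD9 held it at 149 and at 102 bases before the TSS. PSMD3 held a second match 33 bases after the TSS, outside the printed stretch. Promoter windows of 300 bases, from 250 before to 50 after a TSS, were given for 43 of the 49 genes, as 53 windows. The ARE core occurred in 15 of the 53 (28.3%), against 13.8% of 22199 windows of protein-coding genes, 15.3% of 85 windows of cytosolic ribosomal protein genes and 10.6% of 85 windows of mitochondrial ribosomal protein genes. By group, 3 of 20 core windows, 7 of 23 cap windows and 3 of 4 activator windows held it. Among the 15 genes with the letters, 8 had a start covered by a named peak and 3 a promoter label on a neighbour's peak (PSMD5, PSME2, PSMG2). Another 2 had only peaks elsewhere (PSMC4, PSME4) and 2 no named peak (PSMB9, PSME1). Windows were given for 28, 4, 5 and 6 genes of these states.

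The other letters searched on both strands were those of the ETS core, CCGGAAG, in 17 of 53 windows (32.1%, against 12.8% of all windows), the YY1 core, AAGATGG, in 10 (18.9%, against 6.04%), and the CCAAT box in 22 (41.5%, against 34.7%). The AP-1 letters, TGANTCA, occurred in 3 windows (5.66%, against 6.15%), those of PSMD2, PSMD9 and PSMC5, and the core of nuclear respiratory factor NRF1, GCATGCG, in 3 (5.66%, against 4.63%). ETS letters lay in 12 of 23 cap windows and 2 of 20 core windows. These are counts of windows, and the 17 belong to 16 genes. PSMC3IP, which matches by name only, is among the cap genes with ETS letters. The TCF core, ATCAAAG, to which the partners of β-catenin bind, was found in 0 of 53 windows, against 1.98% of all windows, which says only that these letters are not in these windows. No matches of different motifs overlapped one another in the 53 windows. The ETS letters were found in 32.9% of cytosolic ribosomal protein, 38.8% of mitochondrial ribosomal protein and 36.7% of RNA polymerase subunit windows, beside the 32.1% of proteasome windows. The YY1 letters were in 10.6%, 31.8% and 3.33% of these windows in the same order. A match of letters is a description and not a binding site.

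**Figure D2:**
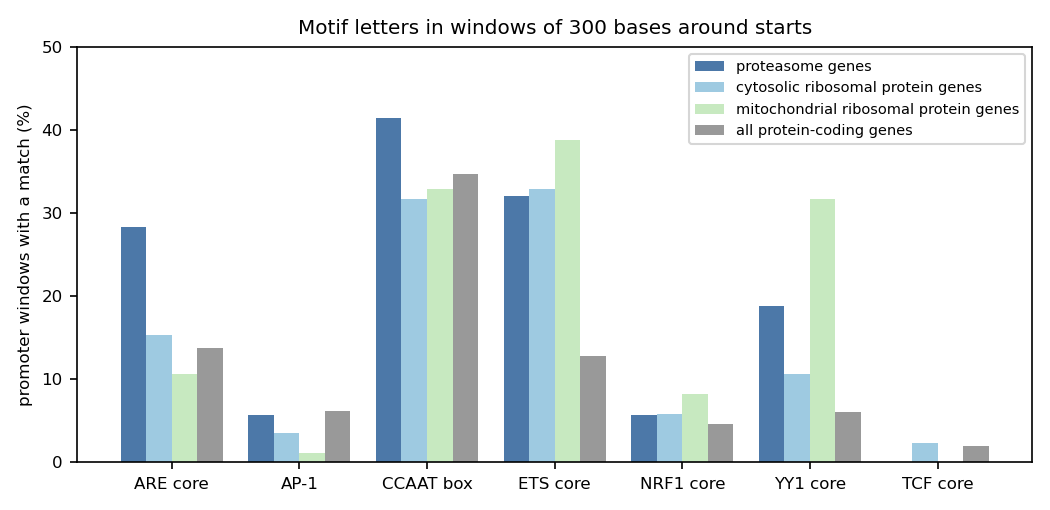
Share of promoter windows (%) that hold each set of motif letters on either strand, for proteasome genes (53 windows), cytosolic and mitochondrial ribosomal protein genes (85 windows each) and all protein-coding genes (22199 windows). The ARE core stands at 28.3% for proteasome genes and 13.8% for all, and the TCF core bar of the proteasome genes is at 0.

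Of the genes of the alpha ring, 5 of 8 had a start covered by a named peak, against 36.4% of all protein-coding genes. The 5 peaks were 1310 to 2224 bp long. The PSMA1 peak was 2224 bp long (chr11:14541200-14543422), centred 320 bp upstream of the TSS and labelled promoter. The PSMA4 peak (2066 bp) was centred 53 bp downstream and the PSMA5 peak (1605 bp) 84 bp upstream. PSMA3 and PSMA6 had shorter start peaks of 1310 and 1366 bp, centred 92 and 47 bp downstream. All 5 were labelled promoter by their centres.

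Some alpha promoter labels fell on peaks named for other genes. The label of a second PSMA1 promoter, that of its longer transcript, fell on a 2613-bp peak (chr11:14664236-14666847) that is named for PDE3B, a phosphodiesterase gene. The PSMA2 promoter label fell on a 1492-bp peak (chr7:42971249-42972739) named for MRPL32, a mitochondrial ribosomal protein gene, and centred 55 bp downstream of the MRPL32 TSS. A 1342-bp peak in the sixth intron of PSMA2 was named for C7orf25. PSMA8, the testis-specific alpha subunit, had no peak at its start, only peaks of 658 and 603 bp in introns, both centred in Alu elements, 11432 and 18642 bp downstream of the TSS. No peak was named or labelled for PSMA7, which lies between LSM14B and SS18L1. LSM14B had a 3832-bp promoter peak, and the SS18L1 peak nearest to PSMA7 lay 12824 bp downstream of the SS18L1 TSS.

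The constitutive beta ring had a covered start in 6 of 7 genes, against 36.4% of all protein-coding genes. PSMB2 had the longest of these peaks, 3576 bp (chr1:36105944-36109518), followed by PSMB3 with 3178 bp (chr17:36907481-36910657). PSMB7, the trypsin-like protease, had a 2498-bp promoter peak, and PSMB6, the caspase-like protease, a 1953-bp peak in its first intron that reached the TSS. PSMB4 had a promoter peak of 2468 bp and PSMB1 one of 2412 bp. The PSMB1 peak (chr6:170861692-170864102) carried the promoter label of TBP, the TATA-box-binding protein gene. PSMB5, the chymotrypsin-like protease, was the exception, with no peak named or labelled for it. Its neighbours were named for peaks: C14orf93 had a 1294-bp promoter peak and PSMB11 a 1744-bp peak.

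The inducible beta subunits replace the constitutive proteases in the immunoproteasome, which generates peptides for antigen presentation, and they differed from one another. PSMB10 had the longest start-covering peak among all 49 genes, 7345 bp (chr16:67965817-67973160), centred in its exon 5 of 8, 1292 bp downstream of the TSS. PSMB8 and PSMB9 had none. Both lie in the major histocompatibility complex on chromosome 6, beside the peptide transporter genes TAP1 and TAP2. The last HLA-DQA2 peak ended at 32717939 and the first BRD2 peak began at 32935329. The 217 kb between them held no peak of the list, and in RefSeq 8 protein-coding genes lie there, PSMB8, PSMB9, TAP1 and TAP2 among them. PSMB11, the beta subunit of the thymus, had no peak at its start; its 1744-bp peak lay 4961 bp downstream, at the end of the neighbouring CDH24.

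Of the 6 ATPase genes, 5 had a covered start, against 36.4% of all protein-coding genes. PSMC3 had a 5674-bp peak (chr11:47446950-47452622), which covered the TSS although its midpoint, 1762 bp upstream, was annotated as intergenic. PSMC5 had a 2568-bp promoter peak (chr17:61903219-61905785) and, 743 bp farther on, a 7458-bp peak (chr17:61906528-61913984) labelled for the end of PSMC5, the longest of the 91 peaks. PSMC6 had a promoter peak of 1425 bp. The PSMC1 (1066 bp) and PSMC2 (1117 bp) peaks were the shortest start-covering peaks of all, centred 250 and 416 bp downstream. PSMC1 had a second linked peak of 1788 bp, 2313 bp upstream and longer than the first. PSMC4 had no start peak, only a 1445-bp peak centred in an Alu 7102 bp downstream, in its sixth intron. The peak of PSMC3IP was 2407 bp long, at its promoter.

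All 3 other base subunits had a covered start, against 36.4% of all protein-coding genes. PSMD2, a scaffold subunit that docks ubiquitin receptors, had a 2514-bp promoter peak (chr3:184015261-184017773). PSMD4, a ubiquitin receptor, had one of 2248 bp and a further linked peak of 1948 bp in its first intron. PSMD1, the other scaffold, had a start peak of 1510 bp centred in a CpG island. The 2 other peaks named for PSMD1, of 597 and 670 bp, lay in its introns and were centred in Alu elements. Another 3 peaks in its introns, of 622 to 699 bp and each centred in an Alu, were named for HTR2B, a serotonin receptor gene nested in that region.

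The lid had a covered start in 6 of 8 genes, against 36.4% of all protein-coding genes, with peaks of 1191 to 1982 bp. PSMD13 had the longest, 1982 bp (chr11:235629-237609), which carried the promoter label of SIRT3, the mitochondrial deacetylase gene on its other side. The PSMD3 peak was 1816 bp, the PSMD11 peak 1764 bp and the PSMD6 peak 1673 bp long. PSMD14, the deubiquitinase of the lid, had a start peak of 1328 bp and 2 further linked peaks of 686 and 661 bp, both centred in Alu elements of its first intron. PSMD12 had the shortest lid peak at a start, 1191 bp, and a 7300-bp peak 50235 bp downstream and beyond the gene. PSMD7 had no start peak, only intergenic peaks of 1604 and 2950 bp, 13974 and 31770 bp downstream. No peak was named or labelled for PSMD8.

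Chaperones of assembly were mixed. PSMD9, a chaperone of the base, had a 2554-bp start peak (chr12:122325936-122328488) with the promoter label of HPD, and longer peaks of 3590 and 3270 bp centred in Alu elements of its introns. PSMD5, another base chaperone, had its promoter label on a 1404-bp peak (chr9:123604696-123606098) named for the antisense RNA PSMD5-AS1, centred 77 bp downstream of the TSS of that RNA. No peak was named for PSMD10, also a base chaperone, on chromosome X. Among the chaperones of the core, PSMG3 had a 5508-bp peak (chr7:1605684-1611190) that was centred in an Alu 1192 bp downstream and covered the TSS. PSMG4 (1906 bp) and PSMG1 (1728 bp) had start peaks too. PSMG2 had its promoter label on a 2017-bp peak (chr18:12701467-12703482) named for CEP76, a centrosome gene, while the 2 peaks named for it lay in CEP76, 13296 and 16720 bp from the listed TSS.

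Activator genes were linked by name in 2 of 4 cases, against 50.7% of all protein-coding genes. PSME3, the nuclear activator, had a covered start with a peak of 1467 bp (chr17:40984771-40986236), centred 344 bp downstream. PSME4, the activator with roles in sperm development and DNA repair, had 5 peaks of 626 to 1318 bp, none at its start; the closest (1155 bp) lay 4260 bp downstream in the first intron. PSME1 and PSME2 form the interferon-induced activator and lie near each other on chromosome 14. The PSME2 promoter label fell on a 2996-bp peak (chr14:24615178-24618172) named for RNF31, a subunit of the linear ubiquitin ligase, and centred 16 bp downstream of the RNF31 TSS. No peak was named or labelled for PSME1, and the peak of its neighbour EMC9 (2479 bp) was centred 208 bp from the start of EMC9. PSMF1, the proteasome inhibitor, had a promoter peak of 3376 bp (chr20:1097451-1100825), centred 102 bp upstream.

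The core and cap genes were compared by name stem. Core genes (PSMA and PSMB) were linked in 13 of 19 cases (68.4%, interval 46.0 to 84.6) and cap genes (PSMC and PSMD, PSMC3IP included) in 17 of 21 (81.0%, interval 60.0 to 92.3). Over all protein-coding genes the share was 50.7%. The intervals of the 2 groups overlap over most of their width, and the difference of -12.5 percentage points was not tested, since genes are not replicates. Without PSMC3IP and the 3 base chaperones, of which 1 was linked, 15 of 17 cap genes (88.2%) were linked. The core genes were not trimmed in the same way and kept PSMA8, PSMB8, PSMB9, PSMB10 and PSMB11. The 88.2% and the 68.4% are thus not shares of like sets. With promoter labels counted, 13 of 19 core genes (68.4%) and 17 of 21 cap genes (81.0%) had a covered start or a promoter label. So did 2 of 4 activator genes and 4 of 4 core chaperone genes, against 40.2% of all protein-coding genes.

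The median length of the start-covering peaks of proteasome genes was 1982 bp over 33 genes (95% order-statistic interval 1673 to 2468), against 2233 bp over 7299 protein-coding genes with a covered start. It was 2734 bp for 59 cytosolic ribosomal protein genes, 1812 bp for 55 mitochondrial ribosomal protein genes and 2638 bp for 23 RNA polymerase subunit genes. The median of the linked peaks nearest to the TSS was 1929.5 bp over 36 proteasome genes (interval 1605 to 2412), against 1997 bp over all linked genes. Of the 33 start-covering peaks, 14 exceeded the median of all genes and 6 the upper quartile of 3101.5 bp. The 6 were those of PSMB10, PSMC3, PSMG3, PSMB2, PSMF1 and PSMB3. Within the complex, the median was 1605 bp over 5 alpha genes, 2498 bp over 7 beta genes (1953 to 7345 bp), 1425 bp over 5 ATPase genes and 1790 bp over 10 PSMD genes. The alpha and beta peaks overlapped in length, as 2 of the alpha peaks (2066 and 2224 bp) were longer than the PSMB6 peak (1953 bp).

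The linked share was close to that of other housekeeping families. It was 76.7% for 86 cytosolic ribosomal protein genes (interval 66.8 to 84.4), 74.0% for 77 mitochondrial ribosomal protein genes (interval 63.3 to 82.5) and 81.8% for 33 RNA polymerase subunit genes (interval 65.6 to 91.4). Each of these intervals contains the 73.5% of the proteasome genes. Start-covered shares were 68.6%, 71.4% and 69.7% in the same order, beside 67.3%. These shares were not tested against one another.

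**Figure D3:**
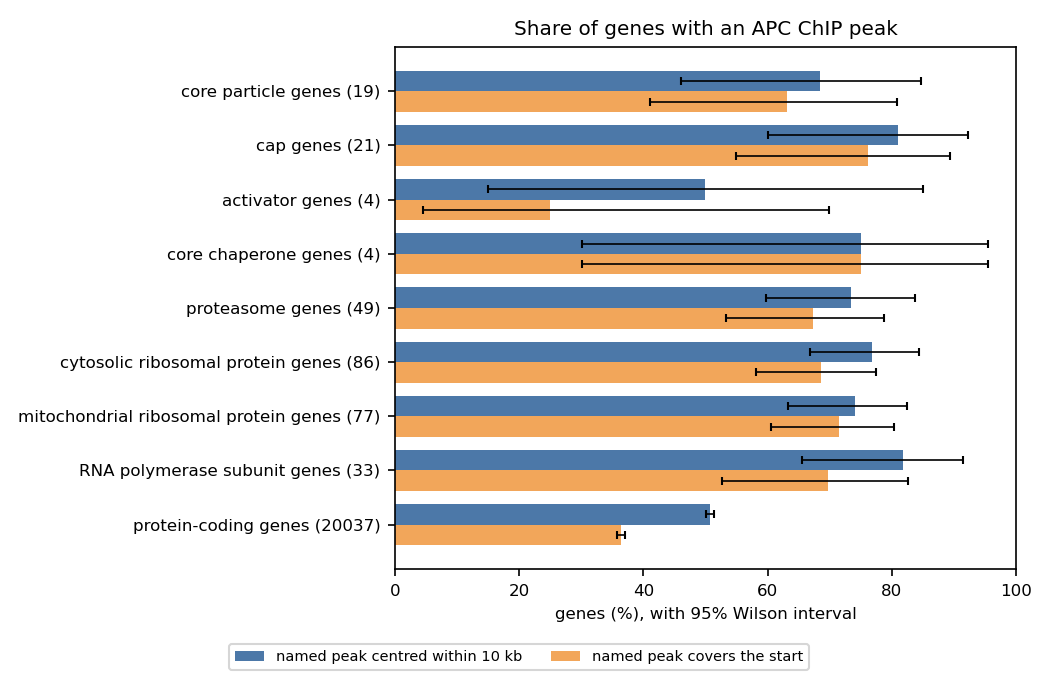
Share of genes (%) with a named peak centred within 10 kb of the start (blue) and with a named peak that covers the start (orange), with 95% Wilson intervals and the number of genes in brackets. Proteasome genes stand at 73.5% and 67.3%, near the ribosomal protein and RNA polymerase families and above all protein-coding genes at 50.7% and 36.4%.

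Of the 91 peaks, 35 (38.5%) were centred in a SINE, a class of short interspersed repeats, against 38.7% of all peaks in the list. The 33 start-covering peaks were centred 14 to 1762 bp from the TSS, with a median of 286 bp, and 28 (84.8%) lay within 500 bp, against 74.5% of start-covering peaks of all protein-coding genes. Of these 33, 19 (57.6%) were labelled promoter, a label that follows from their position, and 10 (30.3%) intronic, against 57.1% and 21.9% of start-covering peaks of all protein-coding genes. The annotation placed the centres of 6 in CpG islands (18.2%, against 10.9%), and all 6 were among the intronic peaks. It placed 1, the PSMG3 peak, in a SINE (3.03%, against 2.92%). The 19 peaks labelled promoter carried only that label, so CpG islands or SINEs at their centres were not counted. The remaining 58 peaks lay 2313 to 86159 bp from the TSS. SINEs held the centres of 34 of these 58 (58.6%), against 48.2% of peaks of protein-coding genes that cover no start. All 35 SINE-centred peaks were in Alu elements, but the Alu share of all SINE-centred peaks of the list was not computed. The median length of the 58 was 1088.5 bp, against 1194 bp for such peaks of all protein-coding genes. Of the 58, 26 lay in a transcript of the gene they were named for, 15 (25.9%) in a transcript of another gene, against 14.1% of such peaks of all protein-coding genes, and 17 in none.

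PSMA3, PSMA6, PSMD11 and PSME4 were each named for 5 or more peaks. PSMA3 had 8 peaks over 46.5 kb of chromosome 14, of 463 to 1522 bp, 3 of them in introns of the adjacent ACTR10 and 1 centred in a tRNA gene 4873 bp upstream of its TSS. PSMA6 had 6 over 135 kb, including 2 in introns of PRORP, with distances that were counted from starts up to 13759.5 bp apart. PSMD11 had 5 over 28.5 kb, of which those of 2352 and 2713 bp in its intron 3 of 12, both centred in Alu elements, were longer than its start peak. Of the 39 named genes, 16 had 1 peak, and the median was 2 peaks, as it was over all named protein-coding genes. Peaks named for PSMG1 at 22101 and 44651 bp upstream lay in introns of BRWD1.

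**Figure D4:**
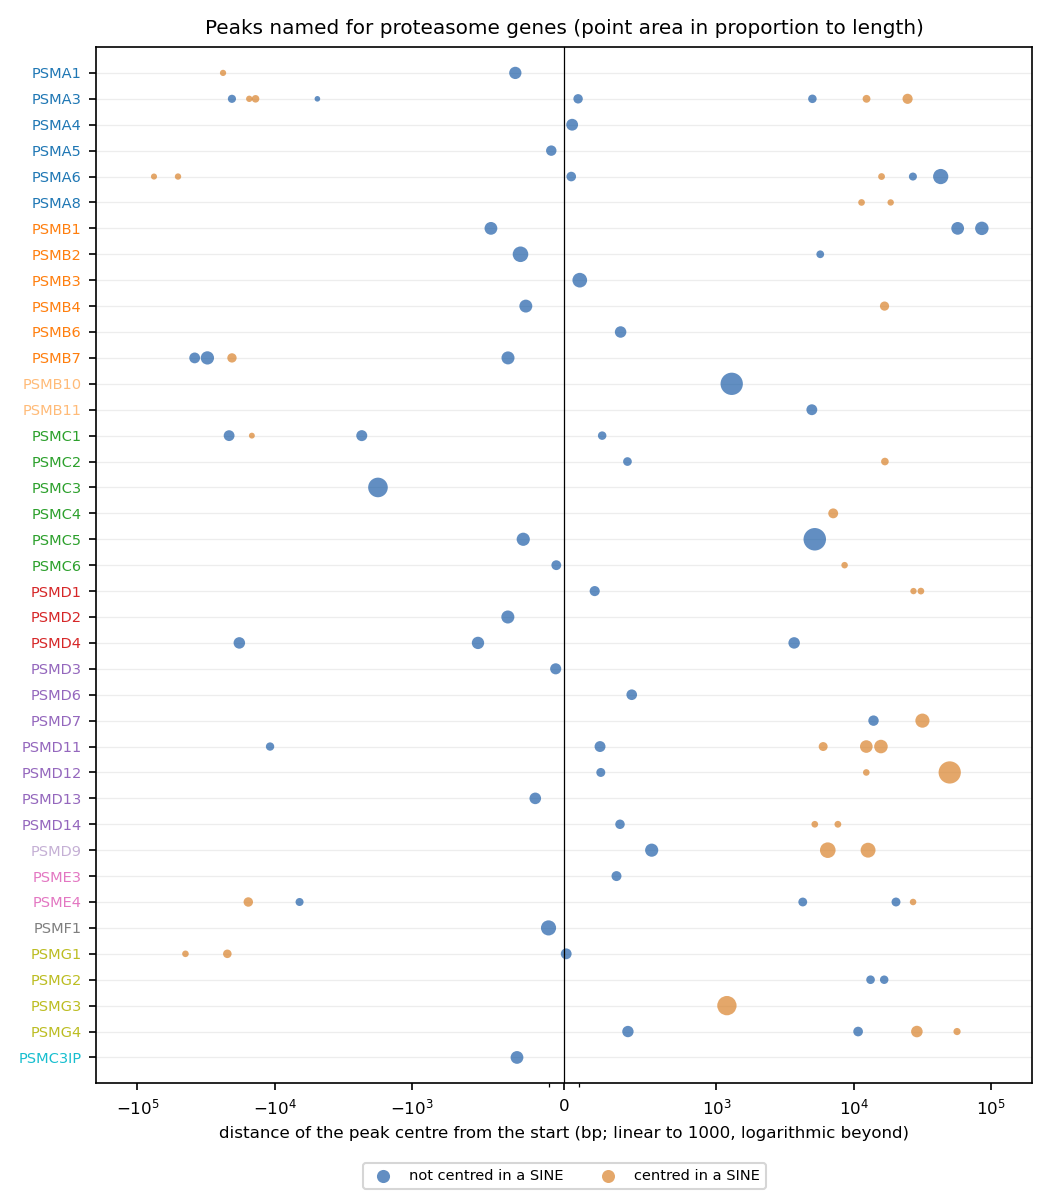
Signed distance in bp of the centre of each of the 91 peaks from the start of its named gene (linear near the start, logarithmic beyond, negative upstream), for 39 genes, with point area in proportion to peak length. Orange points are the 35 peaks centred in SINEs (38.5%, against 38.7% of all peaks in the list), of which 34 do not cover the start, and blue points are all others.

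Genes that work with the proteasome but lie outside the PSM families were described from a list of 25, of which 23 (92.0%, against 50.7% of all protein-coding genes) were linked and 22 (88.0%, against 36.4%) had a covered start. Subunits and cofactors included ADRM1, a ubiquitin receptor of the cap, with a 4597-bp start peak (chr20:60876285-60880880) and 4 linked peaks, UBE3C (3010 bp), a ligase bound to the proteasome, and UCHL5 (2688 bp) and USP14 (1245 bp), its deubiquitinases. The core chaperone POMP had a peak of 1378 bp and the base chaperone PAAF1 one of 1947 bp. No peak was named for SEM1, a small lid subunit. In this group 9 of 10 genes were linked, against the same 50.7%.

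The regulators of subunit genes were linked in 5 of 5 cases, against the same 50.7%. NFE2L1 had a 2739-bp peak (chr17:46124495-46127232) centred 177 bp downstream of its TSS, and NFE2L2, the related factor of the antioxidant response, a 2392-bp promoter peak. DDI2, the protease that activates NFE2L1, had a promoter peak of 1618 bp, VCP, the segregase that extracts it from the membrane, a peak of 2058 bp, and NGLY1, which removes its glycans, an 864-bp intronic peak centred 427 bp downstream that just reached the TSS, beside a 511-bp promoter peak that did not. Among ubiquitin genes, UBB had a peak of 2659 bp and RPS27A one of 2105 bp, both covering the TSS. The activating enzyme gene UBA1 had a start peak of 1069 bp. Of the shuttle factors, RAD23B (2592 bp) and UBQLN1 (2179 bp) had covered starts, UBQLN4 had a linked peak 7360 bp downstream, and no peak was named for UBQLN2.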

How the data were processed

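The authors used MACS2 and the build hg19, per the submitters' processing notes; the version, aligner, threshold, use of the input and annotation tool were not stated in the labels or notes. In all 44771 deposited rows the score was the peak's end less its start with 2 bp added, so it was read as a length and not as a strength. Each row names 1 gene and gives a signed distance in bp to its TSS. A start was called covered where 2 times the distance was at most the length.

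Gene lists came from RefSeq (GRCh38.p14, 20037 protein-coding genes), which matched 98.4% of the 13691 protein-coding names in the list by current or older symbol. Transcripts in the annotation labels matched in 28074 of 28598 rows. RefSeq has 50 symbols of the form used; PSME3IP1, which encodes a binding partner of PSME3, was left out, and no peak was named for it or for its older symbol FAM192A. Every member is named by a fixed rule, by role. Some genes of the partner list are counted but not reported here by name. Members and lists were chosen with earlier results of these data known. Python 3.11.15, pandas 2.3.3, scipy 1.17.1 and matplotlib 3.10.9 were used; the counts, intervals and motif search were checked on simulated data.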

Additional observations from a re-analysis of the deposited data

How the results depend on the processing

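Links within 1 kb, 50 kb or any distance, a length minimum at the median of the list (1350 bp), peaks not centred in SINEs and joining of peaks within 500 bp were tried, as were the member choices. The promoter-label counts were added after the data were seen. Each of 43 alternative values stayed within the 95% interval of the value as reported, but these intervals are wide. The linked share of proteasome genes ran from 61.2% (within 1 kb) to 81.6% (with promoter labels) and that of core genes from 57.9% to 73.7%. That of cap genes ran from 66.7% to 88.2% (without PSMC3IP and the base chaperones), that of activator genes from 25.0% to 50.0% and that of partners from 76.0% to 92.0%. The start-covered share ran from 57.1% to 75.5% (with promoter labels counted), the median length of the nearest linked peak from 1906 to 1929.5 bp, and the ARE share from 22.9% to 28.3%. The median length of start-covering peaks was not recomputed. Shares of all protein-coding genes are 34.9% for links within 1 kb, 63.7% within 50 kb and 67.2% at any distance. For starts covered or with a promoter label the share is 40.2%. None is given for the length minimum, the removal of SINE-centred peaks, joined peaks or links by promoter labels. Whether the difference from all genes holds in those settings was not tested. No paired analysis was possible because the series has 1 library per group and no result comes from a test. The unknown depth limits what the absence of a peak shows: no peak in the list is not evidence of no binding.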
